A study of Rattus norvegicus with 4 samples.

Results

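The genes described here are 10 that encode actin-binding proteins, myosins and apical surface proteins of the podocyte, the epithelial cell that covers the outside of the glomerular capillary. They were chosen by name (Synpo, Podxl, Ptpro, Actn4, Myh9, Ezr, Inf2, Myo1e, Dag1 and Anln), and all 10 were found once each among the 13261 rat genes used. The samples are 4 glomerular preparations, called replicates 1 to 4, from male Wistar rats of 150 to 175 g given intravenous Adriamycin (ADR, doxorubicin), an anthracycline used in rodents to injure podocytes and cause nephrotic syndrome. They form a single group with the same genotype and treatment. Age and dose are not given in the sources used here, and the labels name harvest on day 11 or 21 without saying which day holds for these animals. Glomeruli were obtained by sieving, so each sample is a mixture of glomerular cells with some tubule. No untreated animals were analysed here, so no value below is a response to ADR. The samples are listed separately, and p-values concern only these samples. Those of chi-square tests set differences between libraries against counting error, and the others concern the spread between samples.

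A podocyte sends out foot processes whose shape is held by bundled actin. Their upper surface carries a negatively charged coat built on the sialomucin podocalyxin (Podxl), which is tied to actin through NHERF adaptors and ezrin (Ezr). Receptor phosphatase Ptpro (GLEPP1) also sits on this apical face. Synaptopodin (Synpo) and alpha-actinin-4 (Actn4) bind and bundle actin in the foot process. Nonmuscle myosin IIA (Myh9) and myosin 1e (Myo1e) pull on it or link it to membrane, the formin Inf2 nucleates and severs filaments, dystroglycan (Dag1) anchors the basal side to matrix, and anillin (Anln) links actin to myosin, best known in dividing cells. Human variants in ACTN4, INF2, MYO1E, ANLN and PTPRO are known causes of inherited nephrotic syndrome or focal segmental glomerulosclerosis.

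Column totals ran from 13566962 reads in replicate 1 to 16207027 in replicate 2. The 13 mitochondrially encoded protein genes took 7.46% of reads in replicate 1, 12.5% in replicate 2, 9.34% in replicate 3 and 7.56% in replicate 4. Podocyte markers outside the 10 genes were present in every animal: 16 of 16 were measured, with at least 128 reads for each in each sample. Their mean log2 CPM (reads scaled to a common library total, on a log2 scale) was 7.92, 6.91, 7.41 and 7.71 in replicates 1 to 4. Endothelial markers (11 measured) averaged 9.09, 9.41, 9.48 and 9.21, and proximal tubule markers (12 measured) 8.91, 8.52, 7.82 and 8.49. The podocyte marker mean was thus lowest in replicate 2 and the proximal tubule marker mean lowest in replicate 3.

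Summed over the 10 genes, the share of reads was 0.989% for replicate 1, 0.589% for replicate 2, 0.713% for replicate 3 and 0.872% for replicate 4. The 95% Wilson intervals were 0.984% to 0.995%, 0.586% to 0.593%, 0.708% to 0.717% and 0.867% to 0.877%. These intervals did not overlap; they cover counting error only, since reads without molecular identifiers are not independent molecules. Replicate 1 had the highest value for 9 of the 10 genes, as for 27.7% of all genes, and replicate 2 the lowest for 8, as for 31.5% of all genes. The full order of replicates 1, 4, 3, 2 from high to low was found for 8 of the 10 genes and for 9.44% of all genes. Podocyte markers outside the 10 had replicate 1 highest and replicate 2 lowest in 14 of 16 genes, against 13.4% of all genes. In these tissue samples, fewer podocytes and less RNA per podocyte cannot be told apart.

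Upstream sequences are shown for Podxl and Myh9, whose levels kept the steadiest ratio of any pair of the 10 genes, and for Anln, which had the smallest SD relative to podocyte markers over 4 animals (both results are given later). Each is the 250 bases before the RefSeq start in the GRCr8 rat assembly, 5′ to 3′ on the gene's strand, with GC boxes (GGGCGG, either strand, matches allowed to overlap) in capitals. The windows are chr4:61149132-61149381 on the minus strand for Podxl, chr7:111304964-111305213 on the minus strand for the outer of the annotated Myh9 starts, and chr8:29197514-29197763 on the minus strand for Anln.
Podxl: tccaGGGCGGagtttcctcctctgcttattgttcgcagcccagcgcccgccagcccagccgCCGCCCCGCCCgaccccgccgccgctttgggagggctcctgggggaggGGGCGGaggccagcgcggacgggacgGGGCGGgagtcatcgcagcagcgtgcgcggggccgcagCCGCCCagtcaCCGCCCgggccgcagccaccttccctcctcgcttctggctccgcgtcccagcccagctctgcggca
Myh9: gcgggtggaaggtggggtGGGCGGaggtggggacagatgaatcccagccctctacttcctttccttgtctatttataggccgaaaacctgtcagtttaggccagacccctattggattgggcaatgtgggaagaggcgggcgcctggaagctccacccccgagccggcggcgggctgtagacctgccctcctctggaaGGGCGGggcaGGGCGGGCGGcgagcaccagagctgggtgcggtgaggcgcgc
Anln: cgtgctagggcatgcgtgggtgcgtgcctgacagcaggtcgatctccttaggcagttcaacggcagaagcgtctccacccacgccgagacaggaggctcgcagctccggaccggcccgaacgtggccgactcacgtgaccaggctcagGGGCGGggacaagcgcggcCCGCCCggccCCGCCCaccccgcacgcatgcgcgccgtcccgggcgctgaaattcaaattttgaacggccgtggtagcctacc
RefSeq windows were matched for 8 of the 10 genes, giving 9 windows because Myh9 has a pair; Actn4 and Dag1 were not matched. A GC box stood in 6 of the 9 windows and in 30.5% of all 33469 windows of the same length. GC content ran from 54.4% (Myo1e) to 76.4% (Podxl), except in the Myh9 window not shown (46.8%), against a median of 51.2% over all windows. The share with a GC box was not adjusted for GC content. Podxl held 7 matches, the Myh9 window shown 4, Anln and Inf2 3 each, Synpo 2 and Ezr 1, and those of Ptpro and Myo1e and the other Myh9 window held 0. The E-box CANNTG was found in 6 of 9 windows and 65.5% of all windows, and in none of those of Synpo, Podxl and Ptpro. The early growth response-like element GCGTGGG, a zinc-finger site, was found in 1 of 9 windows, that of Anln with 2 matches, and in 3.68% of all. The forkhead element GTAAACA (3.21% of all), the LIM homeodomain element TAATTA (4.86%) and the Maf half-site TGCTGAC (3.53%) were in 0 of 9. Both strands were searched, and a match describes letters, not binding.

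**Figure D1:**
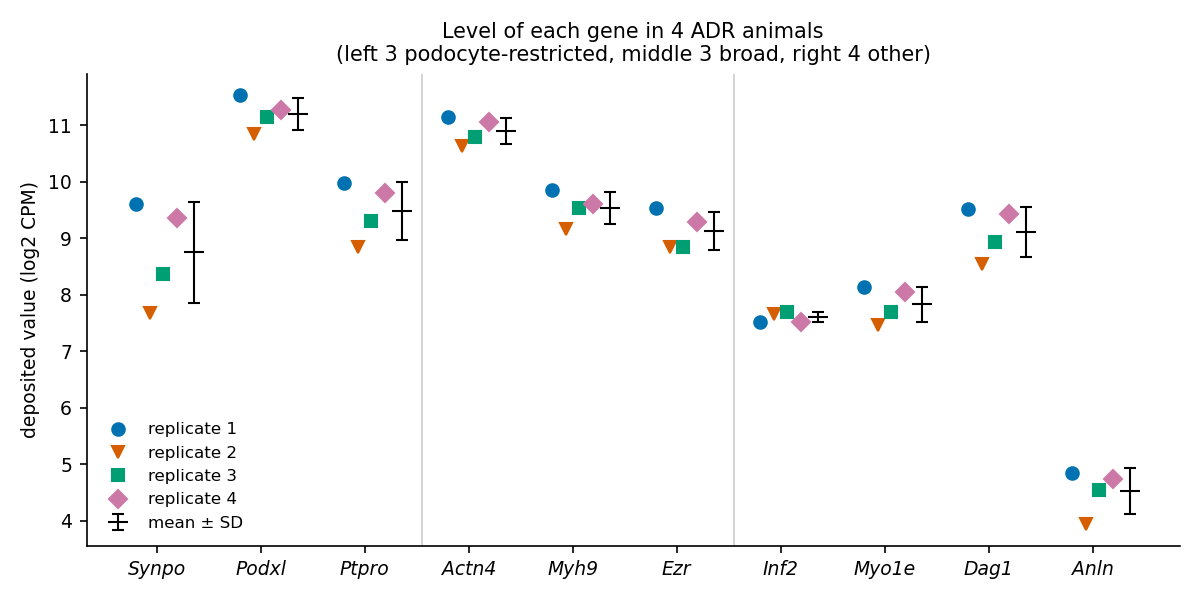
Deposited log2 CPM of the 10 genes (x axis) in each of the 4 ADR animals (symbols by replicate), with the mean and SD beside them. Synpo has the widest spread, from 7.67 to 9.61, and Inf2 the narrowest, from 7.52 to 7.70.

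Synpo, Podxl and Ptpro were grouped by name as podocyte-restricted, and Actn4, Myh9 and Ezr as broadly expressed. Which cells gave their reads in these mixed samples was not tested. Of the podocyte-restricted genes, Synpo (ENSRNOG00000019181) varied most. Its log2 CPM was 9.61, 7.67, 8.36 and 9.35 in replicates 1 to 4, from 10585, 3299, 5040 and 9982 reads. Replicates 1 and 4 lay close together and high, replicate 3 about a log2 unit below replicate 4, and replicate 2 lowest. The mean was 8.75 ± 0.90 (SD, n = 4), with a 3.83-fold range, and its SD exceeded that of 99.2% of all genes. Without replicate 2 the range was 2.38-fold and the SD 0.66.

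Podxl (ENSRNOG00000012495), the core protein of the apical coat, had the same order of animals with a much smaller amplitude. Its log2 CPM was 11.53, 10.85, 11.15 and 11.27, from 40252, 29850, 34872 and 37700 reads. The range was 1.61-fold and the mean 11.20 ± 0.29 (SD, n = 4).

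Ptpro (ENSRNOG00000006231), the apical tyrosine phosphatase, lay between them, at 9.98, 8.84, 9.31 and 9.81 log2 CPM, from 13654, 7428, 9739 and 13673 reads. Its range was 2.20-fold and its mean 9.48 ± 0.51 (SD, n = 4). Although all of Synpo, Podxl and Ptpro ranked the animals alike, they did not scale together. The ratio of Synpo to Podxl reads, on the log2 scale, was -1.93, -3.18, -2.79 and -1.92, a 2.40-fold range with replicate 2 lowest. A ratio within a library does not depend on the scaling between libraries.

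Among the broadly expressed genes, Actn4 (ENSRNOG00000020433), the actin crosslinker, was at 11.14, 10.63, 10.78 and 11.05 log2 CPM, from 30552, 25700, 27077 and 32393 reads. Its mean was 10.90 ± 0.23 (SD, n = 4) and its range 1.42-fold. Replicate 2 was again lowest and replicate 1 highest.

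Myh9 (ENSRNOG00000004860), the nonmuscle myosin IIA heavy chain, was at 9.86, 9.16, 9.53 and 9.60 log2 CPM, from 12567, 9292, 11345 and 11847 reads. It had a mean of 9.54 ± 0.29 (SD, n = 4) and a 1.62-fold range, close to that of Podxl. Without replicate 2 the SD was 0.17.

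Ezr (ENSRNOG00000018524), the membrane-to-actin linker beneath podocalyxin, was at 9.53, 8.85, 8.84 and 9.29 log2 CPM, from 10021, 7494, 7029 and 9534 reads. Here replicate 3, not replicate 2, was lowest, although the values of replicates 2 and 3 nearly coincided. The mean was 9.13 ± 0.34 (SD, n = 4). Ezrin is also a brush border protein of the proximal tubule, whose markers were lowest in replicate 3. After the proximal tubule marker mean was subtracted in each animal, the SD of Ezr was 0.29 in place of 0.34; after the podocyte marker mean was subtracted it was 0.22, or 0.10 without replicate 2. Relative to proximal tubule markers Ezr also stood furthest from its average in replicate 2 (-0.36). That SD was not recomputed without replicate 2, so the value of 0.10 has no tubular counterpart here. The part of tubular RNA in Ezr was not tested.

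The restricted genes were then compared with the broad ones across animals. The mean log2 CPM of Synpo, Podxl and Ptpro was 10.37, 9.12, 9.61 and 10.15 in replicates 1 to 4, and that of Actn4, Myh9 and Ezr 10.17, 9.55, 9.72 and 9.98. Both means were highest in replicate 1 and lowest in replicate 2, and the restricted mean moved further, with a range of 2.38-fold against 1.54-fold. The SD over animals was 0.56 for the restricted and 0.28 for the broad mean, a difference of 0.29 that 4 animals could not carry past 0.05 (two-sided exact permutation test, swapping the centred means within animals, with 2 of 16 swaps as large, the smallest share possible). Leaving out replicate 2 took the difference to 0.16. Synpo carried much of it: without that gene the difference was 0.12, without Podxl 0.43 and without Ptpro 0.31, computed after the values were seen. Without Synpo the SD of the restricted mean was 0.40.

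Summed reads gave a smaller contrast, because Podxl supplies most of the restricted reads. The ratio of restricted to broad reads was 1.21, 0.955, 1.09 and 1.14 in replicates 1 to 4, a range of 1.27-fold (95% interval 1.25 to 1.29, for counting error only). The ratio differed between these libraries beyond counting error (chi-square test of homogeneity on 3 degrees of freedom, p = 7.5e-158), which compares libraries and not conditions. Without replicate 2 the range was 1.11-fold.

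**Figure D2:**
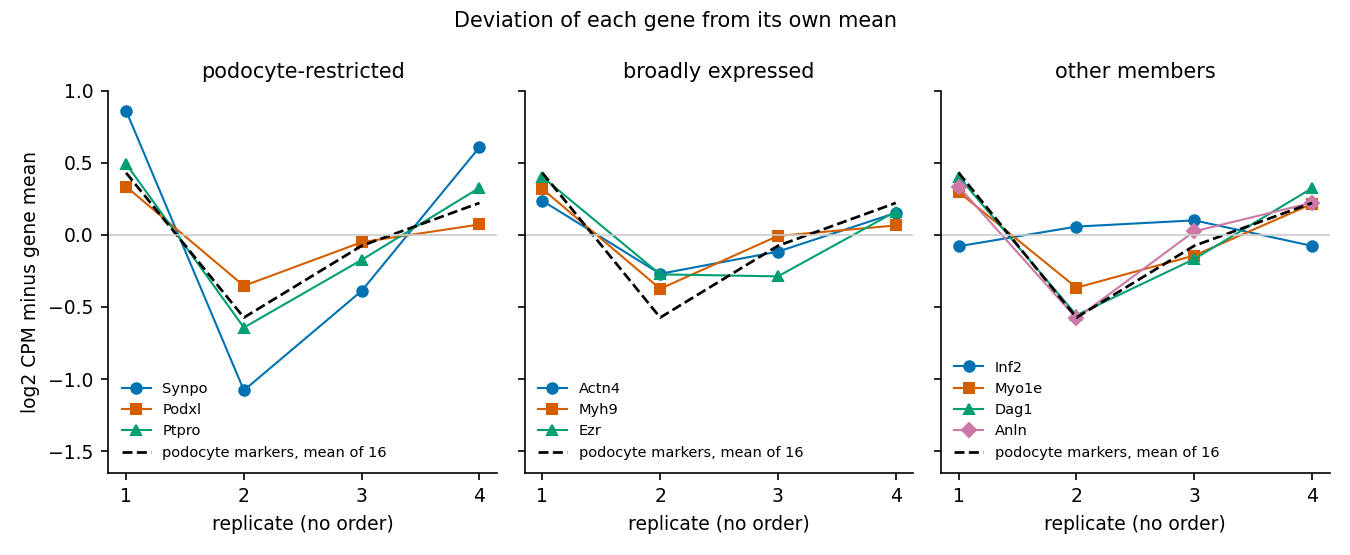
Log2 CPM minus each gene's own mean (y axis) in the 4 replicates (x axis, no order) for the restricted, broad and other genes, with the mean of the 16 podocyte markers dashed. The restricted mean lies 0.69 below its average in replicate 2 and the broad mean 0.31 below, and Inf2 stays near 0.

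Of the remaining members, Myo1e, Dag1 and Anln had the animal order of Synpo. Myo1e (ENSRNOG00000061928), a class I myosin that links actin to membrane, was at 8.13, 7.47, 7.69 and 8.05 log2 CPM, a range of 1.58-fold. Dag1 (ENSRNOG00000019400), the matrix receptor of the basal surface, was at 9.51, 8.55, 8.94 and 9.43 log2 CPM, a range of 1.95-fold with a mean of 9.11 ± 0.45 (SD, n = 4). Replicates 1 and 4 were high for both Myo1e and Dag1, and replicate 2 lowest.

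Inf2 (ENSRNOG00000028650), the formin, was the exception. It was at 7.52, 7.66, 7.70 and 7.53 log2 CPM, from 2496, 3277, 3198 and 2809 reads, with replicate 3 highest and replicate 1 lowest. Its range was 1.13-fold and its SD 0.09, below the median of 0.18 over all genes. The ratio of Synpo to Inf2 reads ranged 4.21-fold between animals, the widest of the 45 pairs among the 10 genes. On the log2 scale it was 2.08, 0.01, 0.66 and 1.83 in replicates 1 to 4, so replicate 2 set the low end of that range.

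Anln (ENSRNOG00000014343), anillin, had 391, 248, 357 and 407 reads, or 4.85, 3.94, 4.54 and 4.74 log2 CPM. Replicate 2 stood below the others, and the mean was 4.52 ± 0.41 (SD, n = 4). Without replicate 2 the SD was 0.16. At these counts its precision is the lowest of the 10 genes.

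Whether any of these spreads was large for a gene of its level was tested over all 13261 genes. Limma's test of residual variance against the abundance trend called 0 of the 10 genes and 0% of all genes at an adjusted p under 0.05. With 0% of all genes called, this result does not show that the spreads of the 10 were small. At an unadjusted p under 0.05 it passed 2 of the 10 (Synpo and Ptpro) and 5.44% of all genes. That count was 4 without replicate 3, 1 without replicate 2 or without replicate 4, and 1 with totals lacking mitochondrial genes or a filter at 3 log2 CPM. For Synpo the trend gave an SD of 0.17 at its level against 0.90 measured (limma, adjusted p = 0.913), and for Ptpro 0.19 against 0.51 (limma, adjusted p = 0.913). The median SD was 0.32 for the 10 genes and 0.18 for all genes. Counting error did not account for the spread of any of them: 10 of 10 exceeded Poisson sampling, as did 69.5% of all genes (chi-square test on recovered reads, adjusted over all genes), the smallest statistic being that of Inf2 at 35.8 on 3 degrees of freedom.

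By the fixed-trend test, which sets reads against a dispersion trend without a prior and was chosen after limma's result, 2 of the 10 genes and 7.52% of all genes were called. These were Synpo (Pearson statistic on recovered reads, adjusted p = 9.82e-08) and Ptpro (adjusted p = 0.0177). Synpo was called in each of the 4 fits that left out a replicate, with adjusted p between 1.64e-06 and 0.00554. Ptpro was lost without replicate 1 (adjusted p = 0.0545), replicate 2 (0.407) or replicate 4 (0.0564). Dag1 (adjusted p = 0.0677) and Anln (0.101) did not pass, and the rest lay at 0.223 or above.

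Ratios between the 10 genes were examined in all 45 pairs. In 45 of 45 the ratio differed between libraries beyond counting error (chi-square test, adjusted over 45 pairs, largest adjusted p 0.031), yet the amounts ranged widely. The SD of the log2 ratio over animals had a median of 0.22. It was smallest for Podxl to Myh9, at 0.03: the log2 ratio was 1.68, 1.68, 1.62 and 1.67, a range of 1.05-fold. Podxl, grouped as podocyte-restricted, and Myh9, grouped as broadly expressed, therefore kept nearly the same proportion in the 4 animals. Whether Podxl reads came from podocytes alone was not tested. Ptpro to Dag1 followed with an SD of 0.07, then Actn4 to Myo1e with 0.08. The 3 widest ratios, of Synpo to Myh9, Actn4 and Inf2, had SDs of 0.64, 0.66 and 0.98.

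Subtracting the mean of the 16 podocyte markers in each animal separated the genes further. The SD became smaller for 9 of the 10, beside 10.4% of all genes, and the median SD was 0.32 before and 0.16 after. Without replicate 2 these medians were 0.22 and 0.10, with 9 of the 10 smaller. With endothelial or mesangial markers in place of podocyte markers, it became smaller for 0 of 10 (30% and 27.6% of all genes), and with proximal tubule markers for 2 of 10 (8.35% of all genes). Over 4 animals the smallest SDs after subtraction were those of Anln, Dag1 and Ptpro, at 0.08, 0.08 and 0.10, against 0.41, 0.45 and 0.51 before. That order rested on replicate 2: without it, Myo1e, Actn4 and Podxl had the smallest, at 0.06, 0.08 and 0.09, and Anln, Dag1 and Ptpro were at 0.10, 0.10 and 0.11. Relative to the markers, 5 genes stood 0.20 to 0.30 above their own average in replicate 2: Podxl (0.22), Myh9 (0.20), Actn4 (0.30), Ezr (0.30) and Myo1e (0.21). Inf2 stood 0.63 above. Synpo stood 0.50 below its average in replicate 2 and 0.43 above it in replicate 1 relative to the markers. For Inf2 the subtraction raised the SD from 0.09 to 0.51. Where totals left out mitochondrial genes the number with a smaller SD was 8.

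**Figure D3:**
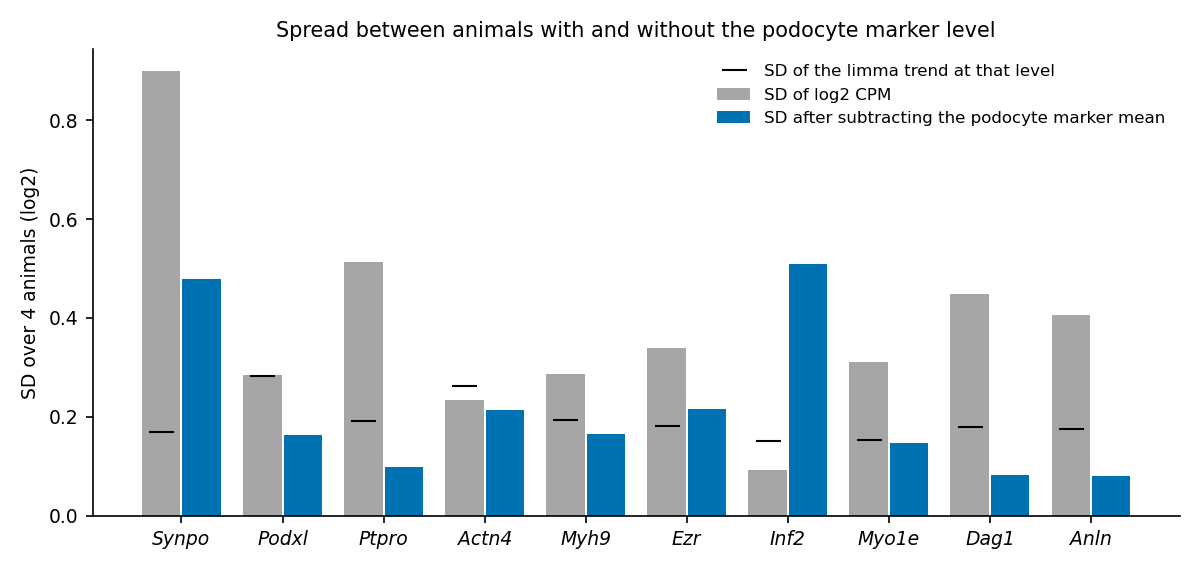
SD over 4 animals (y axis, log2) for each of the 10 genes before (grey) and after (blue) subtracting the podocyte marker mean, with the limma trend SD as black dashes. The blue bar is the shorter one for 9 genes, and Inf2 shows the reverse, rising from 0.09 to 0.51.

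Paralogs and partners of these genes were examined next, from lists chosen with earlier results of these data known. Of 17 further read ratios, 15 differed between libraries beyond counting error (chi-square test, adjusted over 17), the exceptions being Synpo to Synpo2l and Anln to Wt1, 1 of the 16 podocyte markers. Wt1 was the only podocyte marker paired with Anln. Like Wt1, 14 of the 16 were highest in replicate 1 and lowest in replicate 2, but Cdkn1c and Pla2r1 were lowest in replicate 1. With 248 to 407 Anln reads per sample, a ratio that did not differ is not shown to be constant. Synpo2l, the synaptopodin-like paralog, was the gene most like Synpo among 12645 other protein-coding genes, by the distance between centred log2 values over 4 animals (0.11, against a median of 1.57). Its log2 CPM was 6.58, 4.63, 5.30 and 6.43, from 1301, 402, 605 and 1318 reads. The ratio of Synpo to Synpo2l reads was 8.14, 8.21, 8.33 and 7.57, while Synpo itself ranged 3.83-fold. The ratio restates the likeness by which Synpo2l was ranked, and is given as a description. Whether the paralogs share reads was not tested. Synpo2, another paralog, had only 50 to 80 reads per sample, at 2.27, 1.64, 1.77 and 2.40 log2 CPM. Next nearest to Synpo were Ccn4, a secreted matricellular protein, and Npnt (nephronectin), a basement membrane protein, at distances of 0.13 and 0.14.

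The profile of Podxl was matched most closely by Lrp6, a Wnt co-receptor, at a distance of 0.03 against a median of 0.57, then by Zfp316 and Bicd1. Ptpro was nearest to Tdrd5, at 0.02 against a median of 0.93, with Ptch1, the hedgehog receptor, and Prkca, a protein kinase C, behind it. The other broad genes lay nearest to Prrc1, LOC102555635 and Ptar1 (Actn4), Prep, Synj2 and Foxc1 (Myh9), and Susd2, Fut4 and Paqr3 (Ezr). With 4 animals many genes have like profiles, so these names describe likeness only.

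Nonmuscle myosin heavy chains differed from one another. Myh10, the myosin IIB heavy chain, was at 9.33, 7.97, 8.59 and 8.81 log2 CPM and passed the fixed-trend test (adjusted p = 0.00294), whereas Myh14 was at 5.60, 5.37, 5.76 and 5.74 and did not. The ratio of Myh9 to Myh10 reads was 1.44, 2.28, 1.91 and 1.73, highest in replicate 2 and lowest in replicate 1. The proportion of myosin IIA to IIB transcripts therefore differed 1.58-fold between animals. Among the 14 myosin and light chain genes, 0 were called by limma and 2 at the fixed trend (Myh10 among them), where 7.52% of all genes were called, with a median SD of 0.19 beside 0.18 for all genes.

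In the ezrin family, Ezr had the widest spread. Msn was at 10.05, 9.93, 10.15 and 10.02 log2 CPM (SD 0.09), and Rdx (radixin) at 7.41, 7.55, 7.34 and 7.02. The ratio of Ezr to Msn reads was 0.696, 0.474, 0.402 and 0.603, a 1.73-fold range with replicate 1 highest and replicate 3 lowest. The NHERF adaptors join podocalyxin to ezrin. Slc9a3r2 (NHERF2) was at 10.22, 10.33, 10.66 and 10.18 log2 CPM, highest in replicate 3, and the ratio of Podxl to Slc9a3r2 reads was 2.49, 1.43, 1.40 and 2.13. Slc9a3r1 (NHERF1) was at 7.65, 7.45, 7.00 and 7.14, lowest in replicate 3. The 6 sialic acid genes of the list, which serve its synthesis, transport or transfer, had SDs of 0.13 (Gne), 0.11 (Cmas), 0.13 (Nans), 0.16 (Slc35a1), 0.18 (St3gal1) and 0.26 (St3gal4). Of the 14 apical coat and ezrin partner genes, 0 were called by limma or at the fixed trend (0% and 7.52% of all genes were), 13 exceeded counting error (69.5% of all genes did), and the median SD was 0.15, beside 0.18 for all genes.

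The ratio between alpha-actinins also differed between animals. Actn1, the other nonmuscle alpha-actinin, was at 7.97, 7.93, 7.56 and 7.91 log2 CPM, lowest in replicate 3, and the ratio of Actn4 to Actn1 reads was 8.99, 6.51, 9.36 and 8.85. Replicate 2 was thus the animal with the least Actn4 relative to Actn1. Of the 35 actin crosslinker and assembly genes measured, 0 were called by limma, 5 passed at an unadjusted p under 0.05 (5.44% of all genes did) and 8 were called at the fixed trend (7.52% of all genes): Synpo2l, Cd2ap, Kank4, Daam2, Vil1, Pdlim5, Arhgap24 and Limk1. Cofilin Cfl1 was nearly constant at 8.99, 8.99, 8.97 and 8.97. The villin gene Vil1, of tubular brush borders, was at 5.63, 5.45, 4.34 and 4.84, lowest in replicate 3. Its profile was not that of Ezr: the ratio of Ezr to Vil1 reads was 14.9, 10.6, 22.7 and 21.8, a 2.14-fold range beyond counting error (chi-square test, adjusted p = 4.15e-41). Arhgap24, a Rac regulator of podocytes, was at 9.31, 8.14, 8.61 and 8.92 with the animal order of Synpo. The median SD of the 35 genes was 0.17, beside 0.18 for all genes.

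The SD of Dag1 relative to the mean of the 16 dystroglycan complex and ligand genes measured was 0.28, against 0.08 relative to podocyte markers. Laminin Lamb2, a matrix ligand chain, was at 10.61, 10.75, 10.87 and 10.83 log2 CPM, and the ratio of Dag1 to Lamb2 reads was 0.466, 0.218, 0.263 and 0.380. Of the 16 genes, 0 were called by limma and 2 at the fixed trend, Sntb1 (a syntrophin) among them, beside 7.52% of all genes, and the median SD was 0.21 against 0.18 for all genes.

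Anillin was set against genes of cell division, since it is best known there. Mki67 was at 5.71, 5.46, 5.84 and 5.22 log2 CPM and Top2a at 5.14, 4.67, 4.99 and 4.52, both lowest in replicate 4, where Anln was second highest. The 12 genes of the list were not alike: 7 were lowest in replicate 4 (13.9% of all genes were), 4 (Ect2, Racgap1, Septin7 and Septin9) in replicate 2 as Anln was, and 1 in replicate 1. The ratio of Anln to Mki67 reads was 0.550, 0.347, 0.407 and 0.715, a 2.06-fold range beyond counting error (chi-square test, adjusted p = 1.08e-14). The ratio of Anln to Racgap1 reads was 3.23, 3.18, 3.10 and 5.43, a 1.75-fold range beyond counting error (chi-square test, adjusted p = 0.00233) with replicates 1 to 3 close together and replicate 4 higher. The SD of Anln was 0.41 relative to the mean of the 12 cytokinesis and proliferation genes and 0.08 relative to podocyte markers, with 0.41 before either subtraction. Of those 12 genes, 0 were called by limma or at the fixed trend, where 0% and 7.52% of all genes were called, and their median SD was 0.28 beside 0.18 for all genes.

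**Figure D4:**
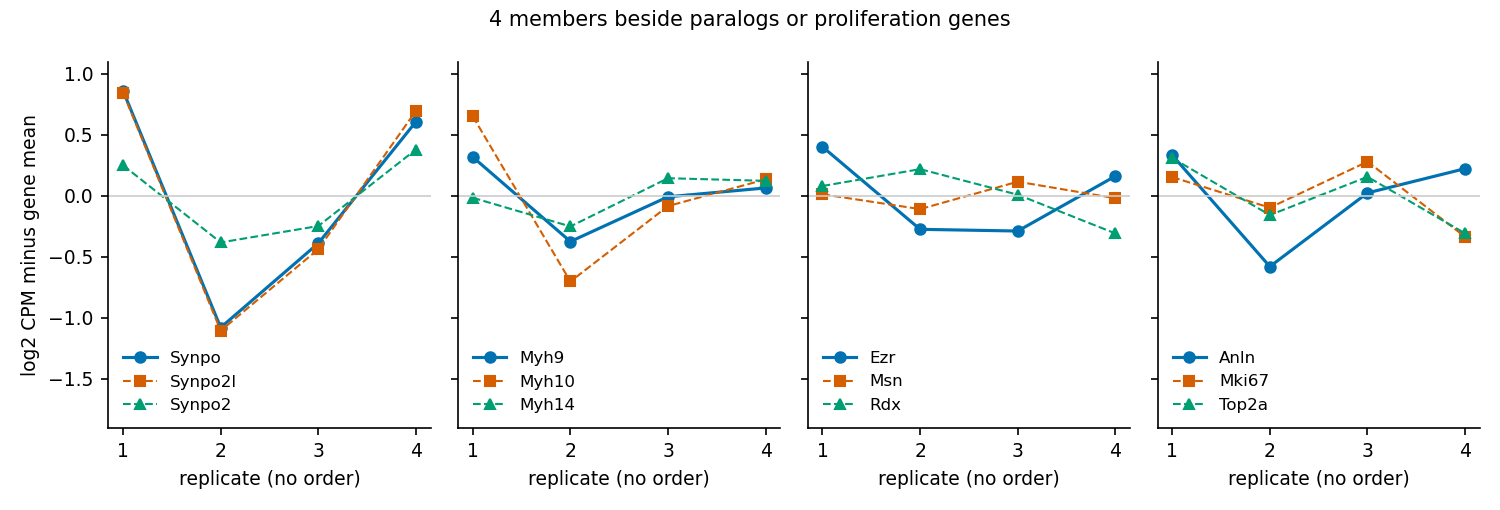
Log2 CPM minus each gene's own mean (y axis) in the 4 replicates (x axis, no order) for Synpo, Myh9, Ezr and Anln beside paralogs or proliferation genes. Synpo2l overlies Synpo, Myh10 swings more widely than Myh9, Msn is flat beside Ezr, and Mki67 and Top2a are lowest in replicate 4 where Anln is not.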

How the data were processed

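Poly(A) RNA of 4 glomerular samples was sequenced as stranded paired-end libraries of 150 bases, per the labels' protocols. HISAT2, featureCounts, Subread and limma and the build Rnor_6.0 are named in the submitters' processing notes; versions, annotation, strand setting and filter are not given in the sources used here. The deposited table holds log2 values for 13265 genes; 4 rows with displaced cells were left out, and 0 columns belonged to no sample. The authors' log2 values were read as log2 CPM with 0.5 reads added: 100% of them gave whole reads within 0.01. Groups came from the treatment label.

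Residual variance was tested with limma 3.58.1 (R 4.3.3; intercept only, abundance trend), and reads by chi-square tests (scipy 1.17.1), each Benjamini-Hochberg adjusted at 0.05. A fixed-trend Pearson test in 40 bins was added after limma's result. On simulated data for 13261 genes, with 50 genes at each fold, limma called 24% of 2-fold and 98% of 4-fold changes in 1 replicate, and the fixed trend 72% and 100%. The simulation gave every gene the same dispersion. The measured genes differed in it, with 3.77 prior degrees of freedom in limma's fit, so these shares do not give the power on the measured data. Members and lists were chosen with earlier results of these data known; of the lists, Pecam1, Cnn1, Krt19, Palld, Sgcd and Hspg2 were not analysed here, and Cttn was not used because 2 rows share its symbol. The rule for named genes took the members, their paralogs, the 3 nearest genes of 6 members, and the highest, lowest and most variable gene of each list. Not all of the latter are printed, the cell type marker lists are mostly given as means, and other genes were chosen after their values were seen. Levels are not compared between genes, since no transcript lengths were used here. Some genes of the lists are counted but not reported by name here.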

Additional observations from a re-analysis of the deposited data

Results flagged for a closer look

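Of 20 profiles examined (the 10 genes, the restricted and broad means, their read ratio and 7 marker lists), 1 passed Dixon's criterion for a lone extreme value among 4 (the gap to its neighbour over the whole range), and chance gives 1. It was the mean of the 4 parietal epithelial markers measured, at 5.15, 5.12, 4.70 and 5.18 log2 CPM in replicates 1 to 4, with a ratio of 0.879 from the low value of replicate 3. Among the 10 genes, 0 passed it.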

How the results depend on the processing

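No paired analysis was possible because the series has 1 group. The plan to compare levels per kilobase was not run, since no transcript or protein lengths were used here. The number of the 10 genes past limma's variance test was 0 in every alternative run with limma (each replicate left out, a pseudocount of 1 CPM, median-of-ratios scaling, totals without mitochondrial genes, a filter at 3 log2 CPM and a robust prior), and 2 with the fixed-trend test on reads. That number of 2 ranged from 1 to 2 across the fits that left out a replicate. The SD difference between restricted and broad genes kept its sign in every alternative run, from 0.12 to 0.43, and from 0.16 to 0.35 with a replicate left out. The restricted to broad read ratio ranged 1.11-fold to 1.27-fold with a replicate left out. All 10 genes stayed beyond counting error in the alternatives run, and 8 or 9 had a smaller SD relative to podocyte markers. Totals without mitochondrial genes raised all values by 0.11 to 0.19 (log2), most in replicate 2; the mean of Inf2 became 7.74, past its SD, by that shift alone. Depth limits Anln most, with 248 to 407 reads.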
